A study of Mus musculus with 35 samples.

Results

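The genes described here encode subunits of mitochondrial respiratory complexes I to IV, measured in whole mouse lung after spontaneous breathing or after mechanical ventilation with or without added CO2. They were chosen by symbol: every measured Ndufa, Ndufb, Ndufc, Ndufs and Ndufv gene, Sdha to Sdhd, every Uqcr gene, and the Cox4 to Cox8 genes. This gave 64 of the 19938 genes with a probe set naming 1 gene. Complex I held 33 of them, complex II 4, complex III 8 and complex IV 19, with Ndufa4 and Ndufa4l2 counted under complex IV. The rule itself used symbols and no measured value, but it was set with earlier results of these data known. All 64 were tested, since no filter on level was used. A mouse RefSeq gene table lists 70 protein-coding symbols that meet the rule, and 6 of them were not analysed here.

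The respiratory chain passes electrons from NADH and succinate to oxygen across the inner mitochondrial membrane. Complex I takes electrons from NADH and complex II from succinate, complex III hands them on to cytochrome c, and complex IV gives them to oxygen, while complexes I, III and IV move protons out of the matrix. Most subunits are encoded in the nucleus and imported. Some complex IV subunits exist as paired isoforms, of which one is found in most tissues and the other mainly in heart and skeletal muscle, testis or, for Cox4i2, lung.

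Adult male C57BL/6J mice of 20 to 25 g were used, and each of the 35 arrays held lung RNA of 1 animal, labelled a biological replicate. The 5 non-ventilated mice breathed room air spontaneously. Low stretch meant 3 h of ventilation with tidal volumes of 10 ml/kg at 135 breaths per minute and 2 cmH2O of pressure held at the end of expiration. It was given in normocapnia on room air (5 mice) or in hypercapnia at an inspired CO2 fraction of 0.12 in room air (5 mice). High stretch meant 3 h with 35 to 40 ml/kg at 30 to 35 breaths per minute, a peak of 27 cmH2O, no pressure held at the end of expiration and an oxygen fraction of 0.75. It was given without CO2 in nitrogen (normocapnia, 10 mice) or at a CO2 fraction of 0.12 (hypercapnia, 10 mice). High stretch therefore differed from low stretch also in oxygen, pressure at the end of expiration and breathing rate, and these cannot be told apart. All lungs were lavaged before they were frozen. In whole lung, fewer cells of a type and less RNA per cell cannot be told apart either.

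Values are log2 signals, and a difference is the second group's mean minus the first's on that scale. A gene passed where limma's moderated test gave a Benjamini-Hochberg adjusted p under 0.05 over the 19938 genes of that comparison. The array number limits the precision. The comparisons share groups: low stretch normocapnia, for example, is the second group of the ventilation comparison and the first group of CO2 at low stretch and of high stretch in normocapnia.

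Promoters are shown because the results turn on Ndufb3 and on the paired isoforms of complex IV. The sequences are the bases just before the annotated start of the gene, 5′ to 3′ on the gene's strand, from RefSeq on GRCm38.p6. Capitals mark matches on either strand to the letters GCGCNTGCG (bound by NRF1, nuclear respiratory factor 1), CCGGAAG (ETS family, to which the respiratory gene activator GABP belongs) or AAGATGGCG (YY1).
Ndufb3, chr1:58586147-58586396, plus strand: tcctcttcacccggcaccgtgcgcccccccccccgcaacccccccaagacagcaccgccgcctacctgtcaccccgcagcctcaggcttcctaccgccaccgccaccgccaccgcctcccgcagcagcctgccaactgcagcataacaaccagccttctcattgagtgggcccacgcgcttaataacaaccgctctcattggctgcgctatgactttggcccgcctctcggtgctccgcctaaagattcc
Cox6b1, chr7:30626115-30626364, minus strand: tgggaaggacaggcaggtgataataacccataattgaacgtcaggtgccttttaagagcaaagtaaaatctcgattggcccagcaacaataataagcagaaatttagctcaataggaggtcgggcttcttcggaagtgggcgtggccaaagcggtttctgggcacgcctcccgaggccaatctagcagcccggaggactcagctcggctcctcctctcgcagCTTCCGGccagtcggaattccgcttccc
Cox6b2, chr7:4753095-4753344, minus strand: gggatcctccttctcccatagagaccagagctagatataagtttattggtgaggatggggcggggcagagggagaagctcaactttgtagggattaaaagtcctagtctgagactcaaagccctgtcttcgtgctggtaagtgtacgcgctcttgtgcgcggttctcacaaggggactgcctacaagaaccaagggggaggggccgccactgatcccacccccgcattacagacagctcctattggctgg
Cox6a1, chr5:115348959-115349208, minus strand: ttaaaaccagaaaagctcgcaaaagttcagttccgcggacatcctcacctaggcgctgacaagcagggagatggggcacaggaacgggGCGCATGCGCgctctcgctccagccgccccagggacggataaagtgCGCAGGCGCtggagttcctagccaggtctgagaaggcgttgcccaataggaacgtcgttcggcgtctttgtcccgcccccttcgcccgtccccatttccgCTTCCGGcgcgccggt
Cox6b1 and Cox6a1 are the isoforms of most tissues, and Cox6b2 is the testis isoform. Cox6a1 held 3 capitalised stretches and Cox6b1 held 1, while Cox6b2 and Ndufb3 held 0. Cox7a2 and Cox8a, also isoforms of most tissues, held 0 as well. Of the 64 genes, 51 matched an entry of the promoter table by symbol. The NRF1 letters occurred in 10 of these 51 promoters (19.6%), against 5.4% of all 27025 promoters of the same length. The ETS letters occurred in 8 (15.7%), against 7.05% of all promoters, and the YY1 letters in 0, against 0.607%. At least 1 of the 3 sets of letters, whose matches were allowed to overlap, was found in 16 of the 51 (31.4%) and in 12.1% of all promoters. The 4 promoters of tissue-restricted isoforms in the table held 0 matches. A match is a description of the letters, not a binding site.

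The 64 genes differed little between the groups. Of 384 tests, 64 genes in each of 6 comparisons, 3 passed, and all 3 were lower after high stretch than after low stretch ventilation in normocapnia: Ndufb3, Cox6b2 and Cox6a2. No gene of the 64 passed in the higher direction in any comparison. The largest difference of all 384, the interaction of CO2 and stretch for Cox8b, was 0.30, a 1.23-fold change that did not pass. In none of the 5 comparisons between groups did the arrays of both groups separate for any of the 64 genes. Over all 19938 genes they separated for 8.19% with ventilation, 2.02% with CO2 at low stretch, 6.58% with high stretch in normocapnia, 0.436% with CO2 at high stretch and 2.75% with high stretch in hypercapnia.

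**Figure D1:**
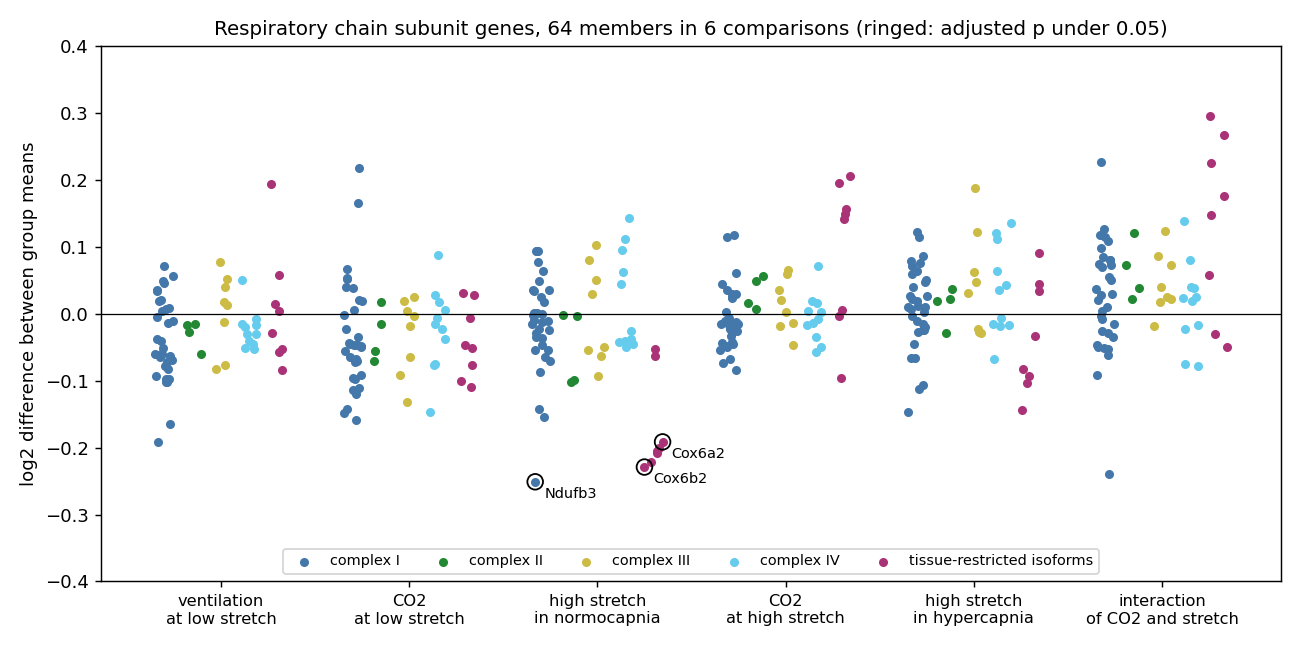
Log2 difference between group means (vertical axis) of the 64 genes in the 6 comparisons (horizontal axis), 1 point per gene, coloured by complex, with the tissue-restricted isoforms of complex IV apart. Ringed and named points passed at an adjusted p under 0.05: Ndufb3, Cox6b2 and Cox6a2, all lower in high stretch normocapnia.

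Ventilation at low stretch was compared with no ventilation. None of the 64 genes passed (limma), whereas 11.8% of all genes did, 6.63% higher and 5.17% lower. The median difference of the 64 was -0.03, against -0.01 over all genes. An unadjusted p under 0.05 was found for 2 of the 64, against 4608 of the 19938 genes. The 95% interval of the difference lay within a 1.3-fold change either way for 63 of the 64 and within 1.5-fold for all 64. The interval that reached farthest from 0 was that of Cox7b2, a testis isoform, at a 1.31-fold increase. Cox7b2 had a low signal, with a mean level of 4.17 that was above 6.1% of all genes.

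Cell type markers moved in this comparison while the 64 genes stayed within those intervals. Of 10 neutrophil markers 8 rose, with a median difference over the list of 2.90. All 6 B cell markers fell (median -1.33), as did 5 of 8 endothelial markers (median -0.38). The mean level of the neutrophil list was 7.60 ± 0.928 (SD, n = 5) without ventilation and 9.99 ± 0.269 (n = 5) with it. The part of these shifts in the levels of the 64 genes was not tested. Markers of alveolar type 2 cells, which define the tissue, were present in every group, with group means of the list between 12.2 and 12.4. With ventilation 7 of these 8 lay below 0 (median -0.09), and 2 passed as lower (25%, against 5.17% of all genes).

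Complex I begins with the N module, the 10 measured subunits around the site where NADH is oxidised. Ndufv1 binds the flavin that accepts electrons from NADH. It read 9.75, 9.68, 9.76, 9.55 and 9.80 in the non-ventilated lungs and 9.75, 9.71, 9.86, 9.52 and 9.72 after low stretch normocapnia, and its difference was 0.00 (SE 0.08). The groups covered the same range. Ndufs1, the largest iron-sulphur subunit, read 9.94, 9.91, 10.16, 9.97 and 10.18 without ventilation and 10.05, 9.90, 10.09, 10.02 and 10.23 with it, a difference of 0.02 (SE 0.06). The median of the N module was -0.04, with 6 of 10 genes below 0.

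The Q module carries electrons on to ubiquinone, and its 5 measured genes all lay below 0 after low stretch ventilation, with a median of -0.08 and none passing. Ndufa5, an accessory subunit of this module, had the smallest p of the 64 here. It read 8.43, 8.43, 8.46, 8.17 and 8.51 without ventilation and 8.13, 8.14, 8.38, 8.09 and 8.29 with it. All 5 ventilated lungs lay below the non-ventilated mean, but non-ventilated replicate 4 lay among them. The difference was -0.19 (SE 0.08, 95% interval -0.36 to -0.03, adjusted p = 0.133, limma). Without that replicate Ndufa5 passed, and the count of the 64 genes called went from 0 to 1. Ndufs7, which holds the last iron-sulphur cluster before ubiquinone, differed by -0.09 (SE 0.08).

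In the membrane arm, the proton-pumping part of complex I with 18 measured nuclear genes, the median was -0.03. Ndufa11 differed by -0.17 (SE 0.08, adjusted p = 0.204) and Ndufb11 by -0.10 (SE 0.07, adjusted p = 0.439), the 2 smallest p values in the arm. A second probe set of Ndufa11 gave -0.05 (SE 0.06). In complex II, the flavoprotein Sdha differed by -0.06 (SE 0.05) and the iron-sulphur subunit Sdhb by -0.02 (SE 0.11). In complex III, the core subunit Uqcrc1 and the Rieske iron-sulphur protein Uqcrfs1 differed by 0.01 (SE 0.08) and -0.01 (SE 0.07).

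Of the 11 complex IV genes outside the tissue-restricted isoforms, 10 lay below 0, with a median of -0.03, and none passed. Cox5a and Cox5b, which sit next to the catalytic core on the matrix side, both differed by -0.02 (SE 0.08 and 0.06). Cox4i1, the regulatory subunit of most tissues, differed by -0.05 (SE 0.08), and its lung isoform Cox4i2 by -0.06 (SE 0.07). Cox7b2 differed by 0.19 (SE 0.10, adjusted p = 0.237).

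**Figure D2:**
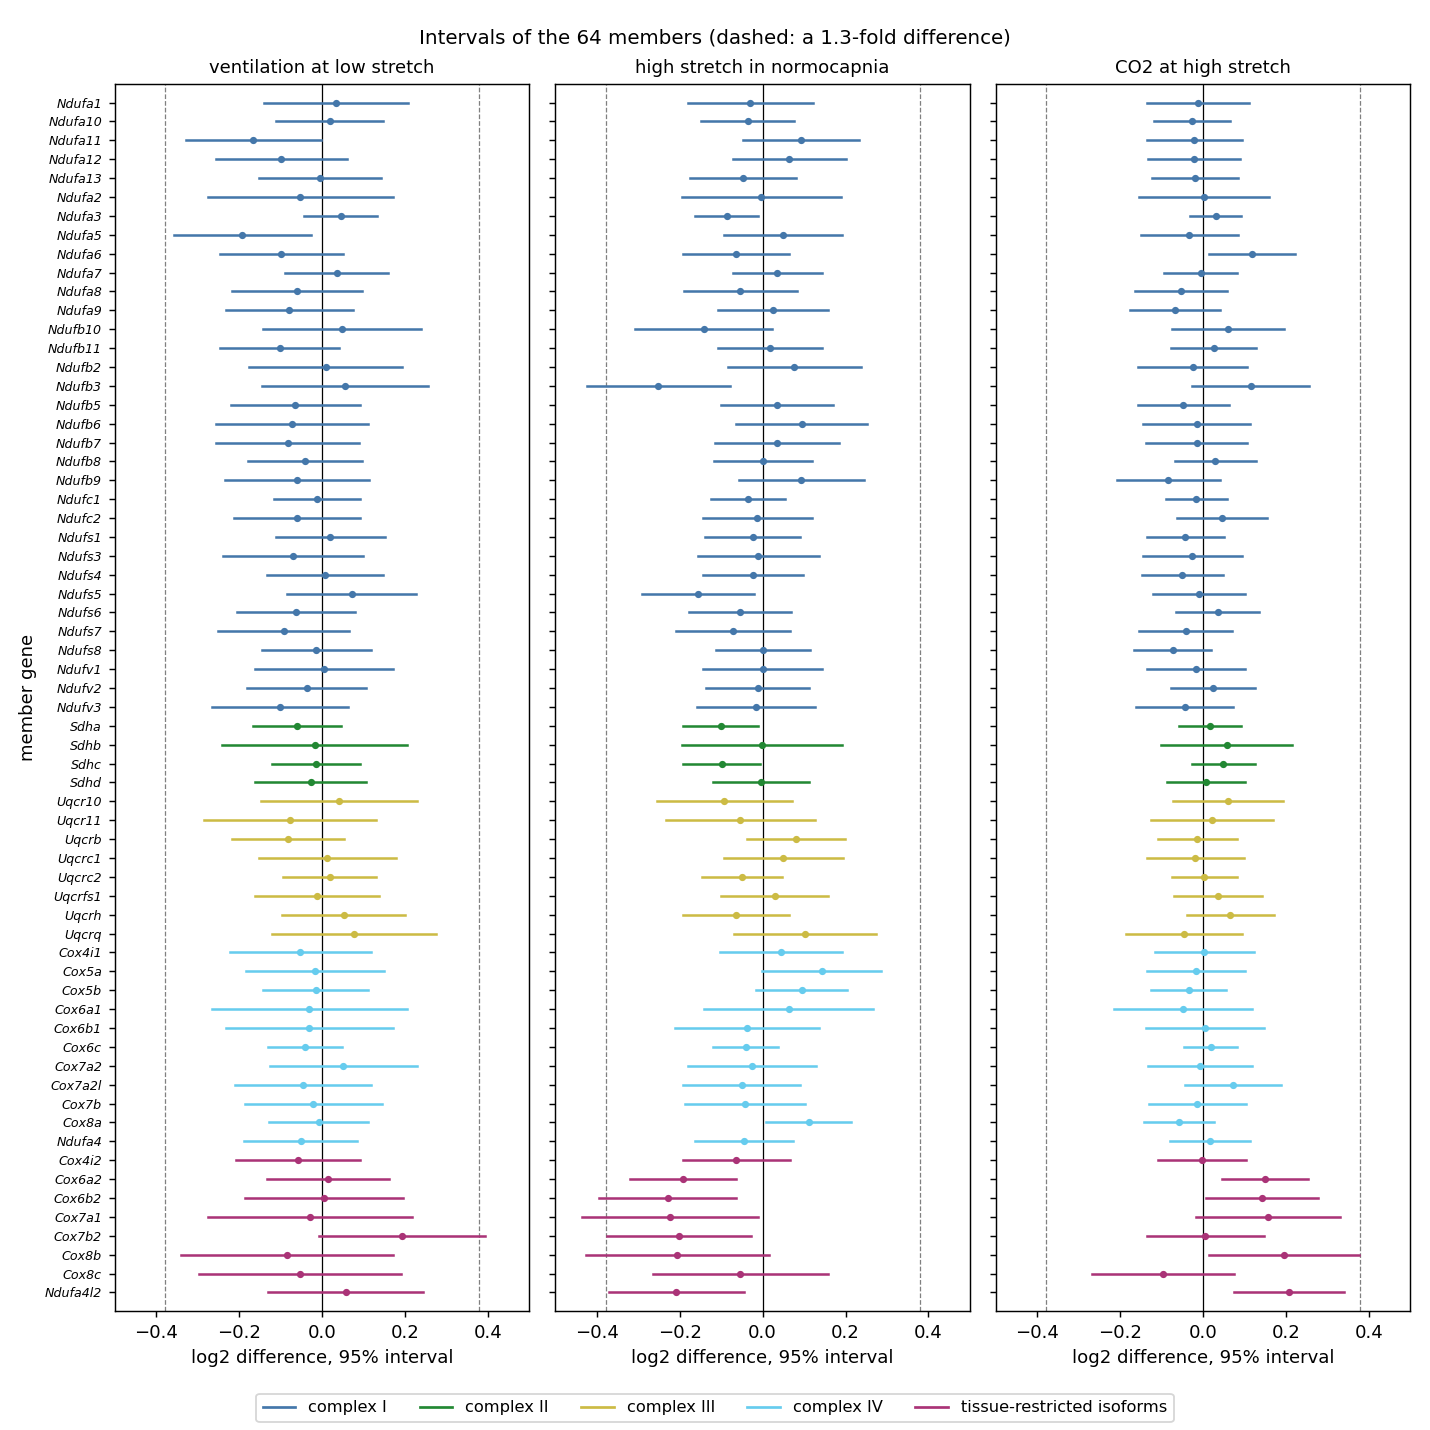
Log2 difference (horizontal axis, point) with its 95% interval (line) for each of the 64 genes (rows, coloured by complex) in 3 comparisons. Dashed lines stand at a 1.3-fold change either way, and 63, 60 and 64 of the 64 intervals lie between them in the panels from left to right.

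CO2 at low stretch was the comparison of hypercapnia with normocapnia under low stretch ventilation. None of the 64 genes passed, and few genes did at all: 0.115% of the 19938, 0.0401% higher and 0.0752% lower. The median of the 64 was -0.04, against 0.01 over all genes, with 44 of 64 below 0. An unadjusted p under 0.05 was found for 6 of the 64, and for 1839 of the 19938 genes. Leaving out single arrays moved the median of the 64 between -0.06 and 0.0013, the upper value being that without low stretch hypercapnia replicate 1. Intervals lay within 1.3-fold for 63 of the 64, all but that of Ndufa11. Low stretch hypercapnia was the group with the lowest mean for 23 of the 64 genes.

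The 4 smallest p values in this comparison all belonged to complex I. Ndufa11, in the membrane arm, read 8.51, 8.53, 8.48, 8.62 and 8.36 in normocapnia and 8.77, 8.58, 8.93, 8.70 and 8.62 in hypercapnia. Hypercapnia was above the normocapnia mean in 5 of 5 lungs, and 3 of those 5 were above every normocapnia lung. The difference was 0.22 (SE 0.08, adjusted p = 0.331, limma), but the second Ndufa11 probe set gave 0.01 (SE 0.06), so the probe sets of this gene did not move alike.
Ndufs8, an iron-sulphur subunit of the Q module, read 8.83, 8.81, 9.04, 8.79 and 8.87 in normocapnia and 8.59, 8.80, 8.65, 8.81 and 8.70 in hypercapnia. The difference was -0.16 (SE 0.06, adjusted p = 0.402), with 5 of 5 hypercapnia lungs below the normocapnia mean and the groups overlapping. The accessory subunits Ndufa6 and Ndufa3 differed by 0.17 (SE 0.07) and -0.10 (SE 0.04), with adjusted p of 0.466 and 0.485.
The N module genes Ndufs1 and Ndufv1 differed by -0.11 (SE 0.06) and -0.07 (SE 0.08), Sdha and Sdhb by -0.06 (SE 0.05) and 0.02 (SE 0.11), and Uqcrc1 and Uqcrfs1 by -0.09 (SE 0.08) and 0.02 (SE 0.07). Cox7a2, the isoform of most tissues beside the muscle isoform Cox7a1, differed by -0.15 (SE 0.09), and Cox7a1 by -0.11 (SE 0.12).

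High stretch was then compared with low stretch in normocapnia, the comparison with the most calls over all genes: 18.3% passed, 8.72% higher and 9.56% lower. Of the 64 genes 3 were lower (4.69%), and 0 were higher. The lower share was below that of all genes. The median of the 64 was -0.02, as it was over all genes. An unadjusted p under 0.05 was found for 11 of the 64, against 5688 of the 19938 genes. Intervals lay within 1.3-fold for 60 of the 64 and within 1.5-fold for all.

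Ndufb3, an accessory subunit of the complex I membrane arm, fell. It read 7.83, 8.01, 8.05, 8.03 and 7.89 after low stretch. After high stretch the 10 lungs ran from 7.53 to 7.86 with a median of 7.70. All 10 lay below the low stretch mean and 8 lay below every low stretch lung. The difference was -0.25 (SE 0.09, 95% interval -0.42 to -0.08, adjusted p = 0.0352, limma). The promoter of Ndufb3 printed above held none of the 3 sets of letters.

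Cox6a2, the heart and skeletal muscle isoform of a complex IV subunit, also fell. Its low stretch lungs read 8.61, 8.60, 8.62, 8.38 and 8.71, and its high stretch lungs ran from 8.23 to 8.52 with a median of 8.43. All 10 high stretch lungs lay below the low stretch mean, and 4 lay below the lowest low stretch lung. The difference was -0.19 (SE 0.06, adjusted p = 0.0280, limma). Its counterpart in most tissues, Cox6a1, differed by 0.06 (SE 0.10, adjusted p = 0.772).

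Cox6b2, the testis isoform of another complex IV subunit, fell as well. Its mean level over all arrays, 7.34, was above that of 48.3% of the genes tested. Cox6b2 read 7.46, 7.40, 7.57, 7.25 and 7.46 after low stretch and from 7.04 to 7.43, with a median of 7.19, after high stretch. Of the 10 high stretch lungs, 9 lay below the low stretch mean and 8 below every low stretch lung. The difference was -0.23 (SE 0.08, adjusted p = 0.0444, limma). Cox6b1, the isoform of most tissues, differed by -0.04 (SE 0.09, adjusted p = 0.855).

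These 3 calls depended on single animals. Without low stretch normocapnia replicate 3 the count was 0, and it was 1 without low stretch normocapnia replicate 1 or 5 or without high stretch normocapnia replicate 1, 2, 6, 7, 8 or 10. Without low stretch normocapnia replicate 2 none of the 3 passed, and the 1 gene that did was Ndufa4l2. Over the 15 fits that each left out 1 array of these groups, Cox6a2 passed in 9, Ndufb3 in 7 and Cox6b2 in 3. All 3 differences stayed negative in each of the 15 fits. With each array centred on its median, the count was 0, with adjusted p of 0.0613 for Cox6a2, 0.0754 for Ndufb3 and 0.0889 for Cox6b2. The count rose to 5 after a second quantile normalization, to 6 with array weights, of which Cox8a was higher, and to 9, all lower, with the array's spread as a covariate. Cox6a2, Ndufb3 and Ndufa4l2 were among the genes called in each of these 3 settings, and Cox6b2 in the last only.

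**Figure D3:**
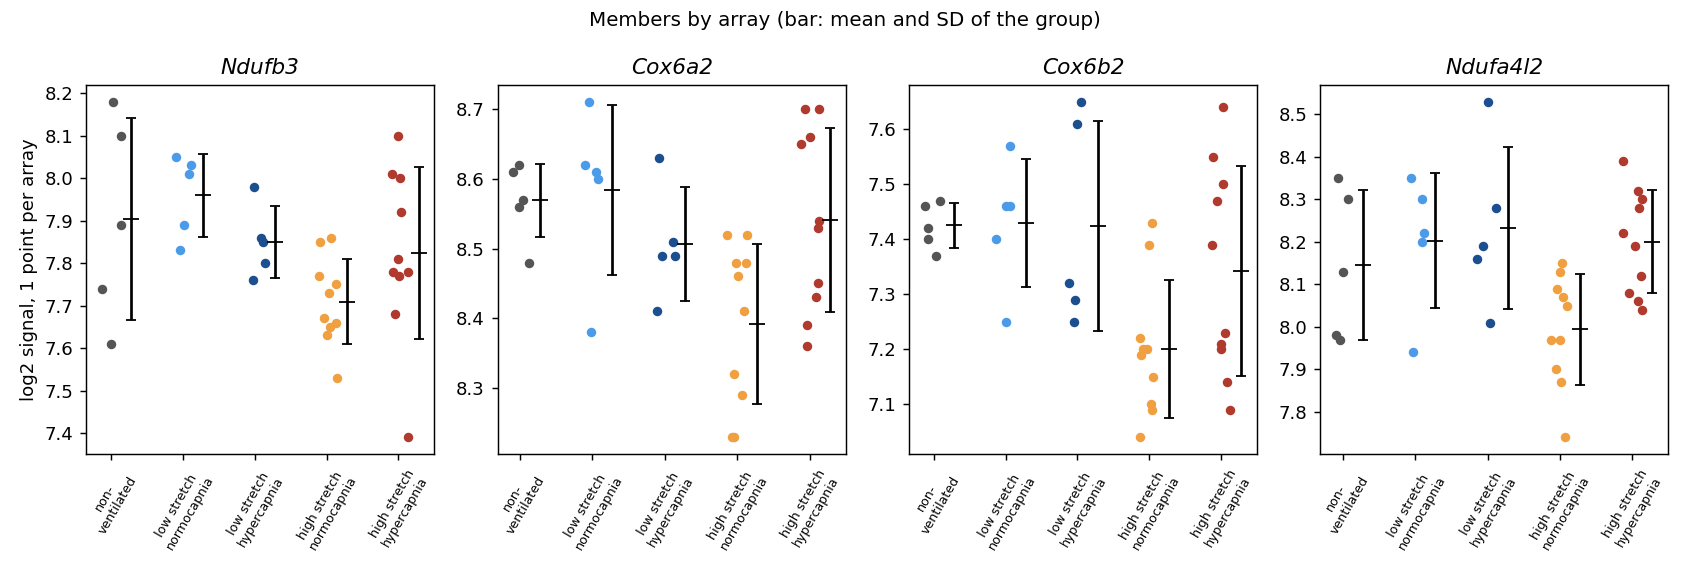
Log2 signal (vertical axis) of Ndufb3, Cox6a2, Cox6b2 and Ndufa4l2 in each array (1 point per animal) of the 5 groups (horizontal axis), with the mean and SD of the group as a bar beside the points. The groups overlap for each gene, and the 10 lungs of high stretch normocapnia have the lowest group mean for all 4 genes.

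The 8 tissue-restricted isoforms all lay below 0 (Cox4i2, Cox6a2, Cox6b2, Cox7a1, Cox7b2, Cox8b, Cox8c and Ndufa4l2), 2 passed, and their median was -0.20. Those 2 are 25% of the list, against 9.56% of all genes lower, and 11293 of the 19938 genes lay below 0. Cox8c, at -0.05 (SE 0.10), and Cox4i2 lay near 0. The mean level of the 8 was 7.32 ± 0.081 (SD, n = 5) after low stretch and 7.15 ± 0.080 (n = 10) after high stretch in normocapnia. Over all arrays their levels ran from 4.17 for Cox7b2, above 6.1% of all genes, to 8.94 for Cox4i2, above 75.6%. Cox8c, at 6.24, was above 31.0%. The 56 other genes had a median of -0.01, with 33 of them below 0 and 1 passing.
Ndufa4l2, a hypoxia-inducible relative of the complex IV subunit Ndufa4, read 8.35, 7.94, 8.22, 8.20 and 8.30 after low stretch and from 7.74 to 8.15 after high stretch. All 10 high stretch lungs lay below the low stretch mean, 3 of them below every low stretch lung. The difference was -0.21 (SE 0.08, adjusted p = 0.0674). Ndufa4 itself differed by -0.05 (SE 0.06).
The muscle isoforms Cox7a1 and Cox8b differed by -0.22 (SE 0.10, adjusted p = 0.151) and -0.21 (SE 0.11, adjusted p = 0.215). Their counterparts Cox7a2 and Cox8a differed by -0.03 (SE 0.08) and 0.11 (SE 0.05, adjusted p = 0.138). Cox4i2 and Cox4i1 differed by -0.06 (SE 0.06) and 0.04 (SE 0.07).

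Markers of cardiac muscle, which in mice also lines the large pulmonary veins, mostly lay lower in this comparison as well. Of 14 such markers 13 lay below 0, 2 passed as lower (Ryr2, -0.38, adjusted p = 0.0112, and Actc1, -0.45, adjusted p = 0.0218), and the median was -0.23. The mean level of the list was 8.63 ± 0.196 (SD, n = 5) after low stretch, ranging from 8.35 to 8.88 between lungs, and 8.39 ± 0.266 (n = 10) after high stretch, ranging from 8.02 to 8.93. Of 4 skeletal muscle markers, 3 lay below 0 and none passed. Their mean level was 6.85 ± 0.652 (SD, n = 5) after low stretch, ranging from 6.535 to 8.014 between lungs. After high stretch it was 6.65 ± 0.171 (n = 10), ranging from 6.49 to 7.009. The highest lung of the list read 8.685 without ventilation, 8.817 in low stretch hypercapnia and 8.702 in high stretch hypercapnia. High stretch normocapnia was thus the only group without a lung that read high for this list. The smooth muscle and pericyte list had 1 of 10 genes higher, 1 lower and a median of -0.07. The isoform and cardiac lists did not always move alike. With high stretch in hypercapnia 12 of the 14 cardiac markers lay above 0 (median 0.13), but 5 of the 8 isoforms lay below 0 (median -0.06). With CO2 at low stretch 13 of the 14 markers lay below 0 (median -0.18), as did 6 of the 8 isoforms (median -0.05). The part of muscle cells and pericytes in the isoform values was not tested.

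**Figure D4:**
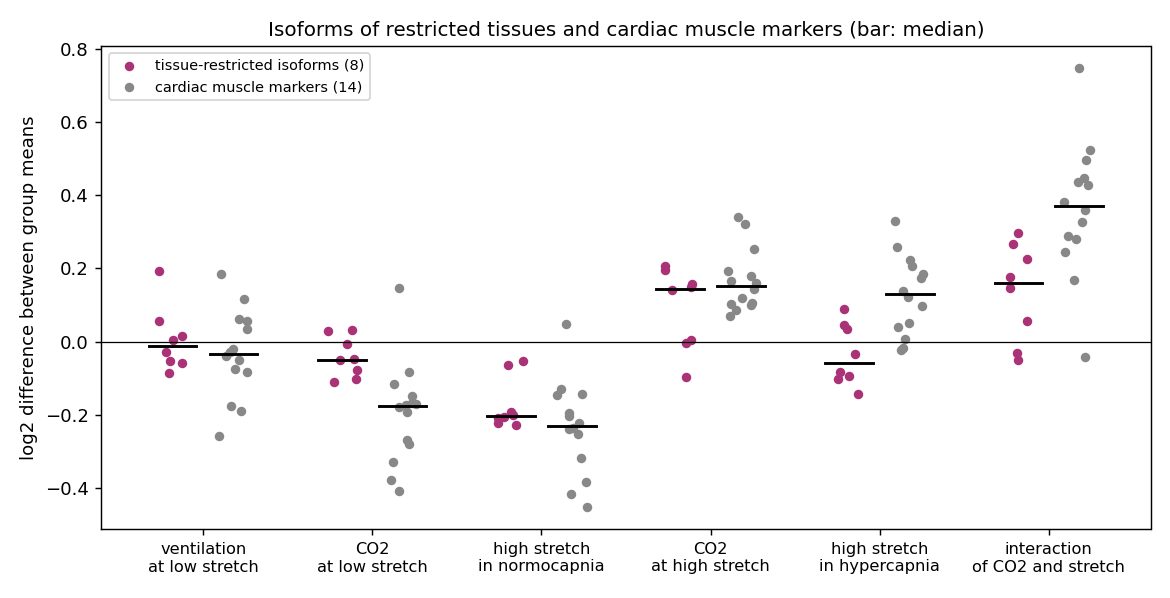
Log2 difference (vertical axis) of the 8 tissue-restricted isoforms and the 14 cardiac muscle markers in the 6 comparisons (horizontal axis), 1 point per gene, with the median of each list as a bar. Medians are -0.20 and -0.23 for high stretch in normocapnia, and 0.14 and 0.15 for CO2 at high stretch.

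None of the catalytic and core subunits passed in this comparison. Ndufv1 ran from 9.54 to 9.85 (median 9.72) in the 10 high stretch lungs, against 9.52 to 9.86 (median 9.72) in low stretch, a difference of 0.00 (SE 0.07, 95% interval -0.14 to 0.14). Ndufs1 differed by -0.02 (SE 0.06) and Ndufs7 by -0.07 (SE 0.07).
Sdha read 11.30, 11.26, 11.39, 11.24 and 11.29 after low stretch and from 11.12 to 11.33 (median 11.18) after high stretch. Of the high stretch lungs, 8 of 10 lay below every low stretch lung, yet the difference of -0.10 (SE 0.05, adjusted p = 0.125) did not pass. Sdhb differed by 0.00 (SE 0.10).
Uqcrc1 and Uqcrfs1 differed by 0.05 (SE 0.07) and 0.03 (SE 0.06). Cox5a differed by 0.14 (SE 0.07, adjusted p = 0.177) and Cox5b by 0.09 (SE 0.05, adjusted p = 0.266). All 10 high stretch lungs lay above the low stretch mean for Cox5b, at 10.42 to 10.59 against 10.24 to 10.50.

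CO2 at high stretch was the comparison of hypercapnia with normocapnia under injurious stretch, the question the study is named for. Over all genes 5.56% passed, 2.49% higher and 3.07% lower, and none of the 64 did. Their median was -0.01, equal to that of all genes to 2 decimals. Of the 64, 5 had an unadjusted p under 0.05, against 3489 of the 19938 genes. With single arrays left out the median lay between -0.02 and 0.0099. Intervals lay within 1.3-fold for all 64, and that of Cox8b reached farthest from 0. With 10 lungs in each group this was the narrowest set of intervals, with a median SE of 0.05.

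The smallest p belonged to Ndufa4l2. It ran from 7.74 to 8.15 (median 8.01) in normocapnia and from 8.04 to 8.39 (median 8.21) in hypercapnia. All 10 hypercapnia lungs lay above the normocapnia mean and 6 above every normocapnia lung. The difference was 0.21 (SE 0.07, 95% interval 0.07 to 0.34, adjusted p = 0.0556, limma), just outside the threshold. Cox6a2 differed by 0.15 (SE 0.05, adjusted p = 0.0828), with 8 of 10 hypercapnia lungs above the normocapnia mean. Between 1 and 2 genes of the 64 passed as higher when high stretch normocapnia replicate 6 or 9, or high stretch hypercapnia replicate 2, 4 or 8, was left out.

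Of the 8 tissue-restricted isoforms 6 lay above 0, with a median of 0.14 and none passing. Cox8b differed by 0.19 (SE 0.09, adjusted p = 0.233), Cox7a1 by 0.16 (SE 0.09) and Cox6b2 by 0.14 (SE 0.07, adjusted p = 0.251). Cardiac muscle markers lay above 0 in 14 of 14, none passing, with a median of 0.15, and the mean level of that list was 8.56 ± 0.184 (SD, n = 10) in hypercapnia, ranging from 8.30 to 8.89. Skeletal muscle markers lay above 0 in 4 of 4, none passing, with a median of 0.27 and a median SE of 0.29. Smooth muscle and pericyte markers lay above 0 in 8 of 10, none passing, with a median of 0.08. Their part was not tested.

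The other subunits lay near 0. Ndufa6 differed by 0.12 (SE 0.05, adjusted p = 0.203), Ndufv1 by -0.02 (SE 0.06) and Ndufs1 by -0.04 (SE 0.05). Sdha and Sdhb differed by 0.02 (SE 0.04) and 0.06 (SE 0.08), Uqcrc1 and Uqcrfs1 by -0.02 (SE 0.06) and 0.04 (SE 0.05), and Cox5a and Cox5b by -0.02 (SE 0.06) and -0.03 (SE 0.04). Ndufb3 differed by 0.11 (SE 0.07, adjusted p = 0.428).

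High stretch in hypercapnia, against low stretch in hypercapnia, passed in 10.1% of all genes, 5.43% higher and 4.69% lower, and in none of the 64. Their median was 0.01, against -0.03 over all genes, with 37 of 64 above 0. That median was -0.02 without low stretch hypercapnia replicate 1 and up to 0.04 without other single arrays. Intervals lay within 1.3-fold for all 64. Cox5b had the smallest p. It read 10.17, 10.45, 10.26, 10.44 and 10.38 after low stretch and from 10.36 to 10.58 (median 10.46) after high stretch, and all 10 high stretch lungs lay above the low stretch mean. The difference was 0.13 (SE 0.05, adjusted p = 0.112, limma).
Uqcrq, a small subunit of complex III, differed by 0.19 (SE 0.08, adjusted p = 0.163), Ndufa11 by -0.15 (SE 0.07, adjusted p = 0.187) and Ndufa6 by -0.11 (SE 0.06, adjusted p = 0.287). The second Ndufa11 probe set gave 0.09 (SE 0.06), of the opposite sign. The 3 genes that passed in normocapnia differed here by -0.03 (Ndufb3, SE 0.09), -0.08 (Cox6b2, SE 0.08) and 0.03 (Cox6a2, SE 0.06).

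Whether the stretch difference itself depended on CO2 was asked by the interaction. It passed for 0% of all genes, 0% higher and 0% lower, and for none of the 64. Of the 19938 genes 893, and of the 64 genes 3, had an unadjusted p under 0.05 (limma). Both counts are below the 1 in 20 that chance gives at that threshold. For Ndufb3, Cox6b2 and Cox6a2 the interactions were 0.23 (SE 0.12), 0.15 (SE 0.11) and 0.23 (SE 0.09), each with an adjusted p of 0.997. The intervals were wider here, within 1.3-fold for 57 of the 64. That of Cox6a2 ran from 0.05 to 0.41 and that of Ndufb3 from -0.02 to 0.47. Ndufa11 had an interaction of -0.24 (SE 0.10), which for its second probe set was -0.02 (SE 0.08). Ndufa3 had an interaction of 0.13 (SE 0.05).

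Over the 5 groups, the means of 1 gene among the 64 spanned 0.12 at the median, from 0.04 to 0.29, against 0.22 at the median over all genes. The SD between lungs of a group was 0.12 at the median over the 64, from 0.05 for Ndufa3 to 0.21 for Cox8b, and 0.15 over all genes. The non-ventilated group had the highest mean for 31 of the 64, low stretch hypercapnia the lowest for 23 and high stretch normocapnia the lowest for 22.

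On the arrays of smallest spread most of the 64 genes lay below their group means. The mean of the 64 ranged from 8.99 to 9.26 between the 35 arrays, while the group means of that value lay between 9.12 and 9.17. The median over all probe sets lay between 6.961 and 7.055, so the 64 were on average bright genes. How many equally bright genes lay below their group means on the same arrays was not counted, so the pattern is not shown to be particular to the 64. In 4 of the 5 groups the array with the smallest SD over all probe sets also had the lowest mean of the 64. Non-ventilated replicate 4 had the smallest SD of its group, 2.187, and 56 of the 64 genes lay below the group mean there. In low stretch hypercapnia replicate 1 it was 59 of 64, in high stretch normocapnia replicate 2 it was 57, and in high stretch hypercapnia replicate 8 it was 58. In low stretch normocapnia the array with the smallest SD, replicate 2, had the second-lowest mean, with 50 of 64 below. At the other end, the array with the largest SD had the highest mean of the 64 in 2 of the 5 groups, non-ventilated and high stretch hypercapnia. Counted from the lowest, it ranked 3 of 5 in both low stretch groups and 5 of 10 in high stretch normocapnia. Without the array of smallest SD in each group, a choice made after seeing the data, Cox6a2, Ndufb3 and Cox6b2 differed by -0.20, -0.22 and -0.23 in high stretch normocapnia, and of these Cox6a2 passed. The counts were then 3 for high stretch in normocapnia (Cox6a2, Ndufa4l2 and Ndufs5, all lower), 2 for CO2 at high stretch (Cox6a2 and Ndufa4l2, both higher) and 1 for ventilation (Ndufa5, lower). The part of array quality in these levels was not tested.

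**Figure D5:**
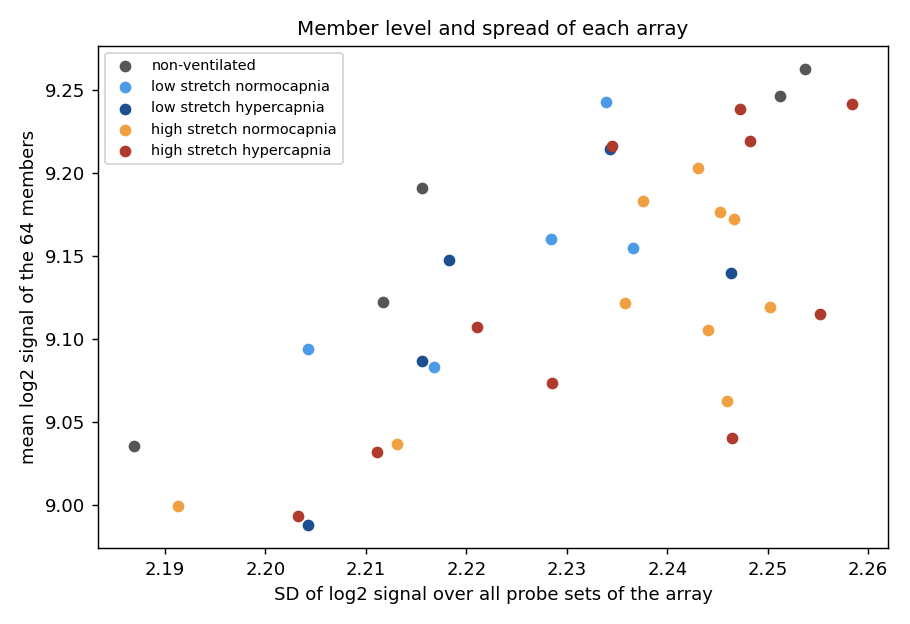
Mean log2 signal of the 64 genes (vertical axis) against the SD of log2 signal over all probe sets (horizontal axis) in each of the 35 arrays, coloured by group. The 3 means under 9 belong to arrays with an SD under 2.21.

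Genes that serve the chain without meeting the rule were followed in lists. Complex V, the ATP synthase, had 17 measured genes, and none passed in any of the 6 comparisons, with medians between -0.05 and 0.04. Of the subunits that mitochondrial DNA encodes, only COX2 and ND3 were measured, and neither passed.
Cytochrome c (Cycs), the carrier from complex III to complex IV, rose after high stretch in both gas conditions. In normocapnia it read 10.07, 9.85, 9.81, 9.80 and 10.14 after low stretch and from 10.15 to 10.60 (median 10.36) after high stretch, and these groups did not overlap. The difference was 0.42 (SE 0.10, adjusted p = 0.00373), and in hypercapnia it was 0.34 (SE 0.10, adjusted p = 0.0318). It was the only 1 of 3 such genes to pass, and the others were Cyc1, a complex III cytochrome, and Ndufab1, the mitochondrial acyl carrier protein.

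Assembly factors, which build the complexes, passed in shares not far from those of all genes. Of 14 complex I assembly factors, 1 was higher (7.14%) and 2 lower (14.3%) after high stretch in normocapnia, where 8.72% and 9.56% of all genes were, and 1 was higher and 1 lower (7.14% each) in hypercapnia, against 5.43% and 4.69%. Ndufaf4 read 7.89, 7.91, 7.86, 7.80 and 8.03 after low stretch normocapnia and from 8.20 to 8.44 after high stretch, with no overlap. It rose by 0.40 (SE 0.05, adjusted p = 1.43e-06), and by 0.32 in hypercapnia (SE 0.05, adjusted p = 0.000102).
With CO2 at high stretch 1 of the 14 passed, Ndufaf4, which was lower: it ran from 7.83 to 8.19 in hypercapnia and from 8.20 to 8.44 in normocapnia, with no overlap (-0.26, SE 0.04, adjusted p = 0.000221). Tmem126b fell after high stretch in both gas conditions (-0.31 in each, adjusted p = 0.0159 and 0.0275), and Ndufaf7 fell in normocapnia (-0.30, adjusted p = 0.00466).
Of 28 factors for complexes II to IV, 1 rose (3.57%) and 3 fell (10.7%) after high stretch in normocapnia. Ttc19, a complex III factor, rose by 0.26 (adjusted p = 0.000459), while Bcs1l, which inserts the Rieske protein, fell (-0.26, adjusted p = 0.0242), as did Coa4 (-0.19) and Coa5 (-0.13). In hypercapnia Ttc19 rose by 0.27 and Uqcc3 fell (-0.28, adjusted p = 0.0166). Coa6 was the 1 factor to fall with ventilation (-0.29, adjusted p = 0.00684), and Cox10, an enzyme of heme A synthesis, the 1 to fall with CO2 at high stretch (-0.18, adjusted p = 0.00433).

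Of 15 transcriptional regulators of mitochondrial genes, 1 rose and 1 fell with ventilation, with high stretch in normocapnia and with CO2 at high stretch, 2 rose with high stretch in hypercapnia, and none passed with CO2 at low stretch. A single gene is 6.67% of this list, and 2.49% to 9.56% of all genes passed in 1 direction in the first 3 of these comparisons. With high stretch in hypercapnia the 2 that rose are 13.3% of the list, against 5.43% of all genes higher. Pprc1, a PGC-1 family coactivator that serum induces, read 8.23, 8.10, 7.82, 7.79 and 8.31 after low stretch normocapnia and from 8.55 to 9.01 after high stretch, with no overlap. It rose by 0.79 (SE 0.11, adjusted p = 2.39e-06) in normocapnia and by 0.64 (SE 0.11, adjusted p = 0.000122) in hypercapnia.
Ppargc1a, the coactivator PGC-1alpha, ran from 6.98 to 7.60 in high stretch normocapnia and from 7.13 to 8.00 in high stretch hypercapnia. It rose by 0.38 with CO2 at high stretch (SE 0.10, adjusted p = 0.0187) and by 0.47 with high stretch in hypercapnia (SE 0.12, adjusted p = 0.00946). In normocapnia its stretch difference was 0.02 (SE 0.12), and its interaction of 0.45 (SE 0.17) had an adjusted p of 0.997.
Of the mitochondrial transcription factors, Tfb1m fell with high stretch in normocapnia (-0.34, adjusted p = 0.0143), and Tfb2m rose with ventilation (0.26, adjusted p = 0.0380) and fell with CO2 at high stretch (-0.24, adjusted p = 0.0111). Ppargc1b fell with ventilation (-0.24, adjusted p = 0.0491).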

How the data were processed

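Extracted lung RNA (Trizol, then a column) was labelled from 5.5 µg with Affymetrix's kit for whole transcripts, per the labels' protocols, and each animal had its own array. The deposited values are log2 signals that the authors normalized with RMA. Affymetrix Expression Console and Partek are named as well in the submitters' processing notes, with no version. RMA aligns the distributions of all arrays, so that a shift of most genes in one direction would be reduced.

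Of 35557 probe sets, 21789 carried 1 gene symbol. A gene was represented by its brightest such probe set on average, which left 19938 genes, and 10 of the 64 members had more than 1 probe set. A model of 5 group means (limma 3.58.1, lmFit and eBayes, R 4.3.3) was fitted to the 35 arrays. It gave 6 two-sided contrasts, each adjusted by Benjamini-Hochberg over 19938 genes. The procedure was tested on simulated data. Promoters were matched by symbol to a RefSeq table.

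The members, marker lists and pathway lists were chosen with earlier results of these data known. Genes named are the members that passed, the 4 smallest p values where none did, the isoform pairs, and catalytic or core subunits of each complex. Cox6b1 was added after its values were seen, as was the printed choice of promoters. From the other lists at most 4 genes that passed are named per comparison. The labels give no batch and no shared animals. Alternatives are given in the closing section.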

Additional observations from a re-analysis of the deposited data

Results flagged for a closer look

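Each group of 5 or 10 arrays was checked for 1 array far from the others (Dixon's ratio at its 95% value) in the 29 named subunit genes and the mean of the 64. Of 150 checks 6 stood out, close to the 1 in 20 that chance gives. Ndufa5 gave 3 of them, each a low value: 8.17 in non-ventilated replicate 4 (the nearest other lung read 8.43), 8.03 in low stretch hypercapnia replicate 1 (nearest 8.25) and 7.80 in high stretch hypercapnia replicate 8 (nearest 8.13). Those 3 arrays had the smallest SD over all probe sets in their groups. Ndufb11 was also low in low stretch hypercapnia replicate 1, at 9.57 (nearest 9.64). Cox7a1, a muscle isoform, was high in low stretch normocapnia replicate 5, at 8.08 (nearest 7.63). Ndufa4 was high in low stretch normocapnia replicate 3, at 11.55 (nearest 11.39), the array without which none of the 64 genes passed for high stretch in normocapnia.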

How the results depend on the processing

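The median differences of the 64 genes, which had no test, stayed near 0, and those of 3 comparisons changed sign. Leaving out single arrays gave -0.06 to 0.0013 for CO2 at low stretch, -0.02 to 0.0099 for CO2 at high stretch and -0.02 to 0.04 for high stretch in hypercapnia. For CO2 at high stretch the median was also 0.0051 with array weights, and for high stretch in hypercapnia it was -0.03 with the array's spread as a covariate and -0.0052 without the arrays of smallest spread. The other 3 medians kept their sign in each alternative run, as did the differences of Ndufb3, Cox6a2 and Cox6b2 in high stretch normocapnia. The count for high stretch in normocapnia, 3 as reported, was 6 with array weights (1 higher, 5 lower), 5 after a second quantile normalization, 9 with the array's spread as a covariate and 0 with arrays centred on their median. With the replicate block, the replicate number as a factor, it was 1 (Ndufa4l2). The numbers showed no sign of pairing the samples, which does not exclude handling shared by number. Over 55 same-numbered pairs the median correlation of deviations was 0.02, and 17 exceeded 0.1. Over 420 differently numbered pairs it was -0.01, and 123 exceeded 0.1. For CO2 at high stretch, 0 as reported, the count was 1 with only the compared groups, with the replicate block, with trend and robust options and after a second quantile normalization. It was 2 with array weights, among genes above the median level, with the array's spread as a covariate and, chosen after seeing the data, without the array of smallest spread in each group. For ventilation, 0 as reported, it was 1 with array weights, a second quantile normalization, the array's spread as a covariate and without the arrays of smallest spread. For high stretch in hypercapnia it was 1 with the array's spread as a covariate (Ndufa6). Leaving out single arrays gave 0 to 3 for high stretch in normocapnia, 0 to 2 for CO2 at high stretch and 0 to 1 for ventilation. The count stayed 0 for CO2 at low stretch and for the interaction in each alternative run. The shares of all genes called in the alternative runs are not set beside these counts, so a rise cannot be read as particular to the 64. Beyond the settings named, the cause of these moves was not tested. The number of arrays limits the precision: the median SE of the 64 was 0.08 for ventilation and for CO2 at low stretch, and 0.05 for CO2 at high stretch.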

Other observations

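Ciliated cell markers lay lower after high stretch, with 2 of 5 passing in normocapnia (median -0.18) and 2 of 5 in hypercapnia (median -0.23), and B cell markers lay higher, with 4 of 6 passing in normocapnia (median 0.41) and 3 of 6 in hypercapnia (median 0.42). The mean level of the B cell list was 6.77 ± 0.269 (SD, n = 5) after low stretch and 7.17 ± 0.188 (n = 10) after high stretch in normocapnia. In the same comparisons the 56 subunit genes outside the tissue-restricted isoforms had medians of -0.01 and 0.02, with 1 and 0 passing. Of 3 brown fat markers 1 passed, as higher, for high stretch in normocapnia.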
